A study of Homo sapiens with 24 samples.

Results

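The genes described here are 53 genes of proliferation and the cell cycle, followed in 3D aggregates of LUHMES cells on 24 single-color Agilent arrays. They form a list of gene names, chosen with earlier results of these data known, and were matched to array probes by RefSeq accession. Of the 53 genes, 52 were measured, by 65 probes, among 21239 genes tested, and PLK1 was not analysed here. LUHMES are human mesencephalic neuronal precursors that carry a v-myc transgene under control of tetracycline, so that the line proliferates without tetracycline and leaves the cell cycle with it. Every group, controls included, was grown on a gyratory shaker in differentiation medium with tetracycline, cAMP, GDNF and N2. From day 7 of differentiation the aggregates received rotenone, an inhibitor of mitochondrial complex I, at 100 nM for 24 h, at 50 nM for 24 h or at 50 nM for 12 h. Controls received DMSO in the amount of the 100 nM exposure. RNA was taken right after exposure (day 8) or after wash-out and a further 7 days without rotenone (day 15), which gave 8 groups of 3 arrays. The replicates were wells of 1 cell line, so that p values measure only the spread between these samples. RNA of whole aggregates was measured, and fewer dividing cells and less RNA per dividing cell cannot be told apart.

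Passage through the cell cycle is driven by cyclins, which activate cyclin-dependent kinases in turn. In G1, cyclin E and the transcription factors of the E2F family start a program that licenses replication origins and supplies nucleotides for DNA synthesis. In G2, a second wave of genes follows under B-MYB and FOXM1, which provides cyclin B, the mitotic kinases, the kinetochore and the spindle. In resting cells both waves are held down by the DREAM complex and the retinoblastoma proteins, and the transcripts are low in neurons, which do not divide. MKI67, which encodes the antigen Ki-67, is widely used as a mark of dividing cells.

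Levels are given as normalized log2 signals, in the order of replicates 1, 2 and 3, and the level of one gene cannot be set against that of another, since each has its own probes. Changes are differences of group means on the log2 scale with their standard error (SE), from limma. A gene counted as called where its fold change exceeded 1.5 with an adjusted p below 0.05. Counts of genes at an unadjusted p below 0.05 are given without the share of all genes. No excess or deficit can be read from them. Between 50.9% and 82.4% of the spots of an array were well above background. Of the 52 genes, 44 were well above background on every array of day 8 DMSO and 29 on every array of day 15 DMSO. The replicate number is the number of the slide. Each slide held every group once and each group kept its position across slides, so that position and group cannot be told apart. Slide 1 is marked in the labels as repeated and in need of batch correction. The scan of day 15 DMSO replicate 1 is named for 12 h on day 15 and not for DMSO, so that its group rests on its label. Counts and medians against day 15 DMSO are given with and without it, as are the calls that change.

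Cell cycle genes differed between arrays of the same group on day 8 and did so together. In day 8 DMSO, replicate 1 was the highest of the 3 arrays for 45 of the 52 genes, while it was the highest for 35.5% of all genes. The median deviation of the 52 genes from their group mean was 0.37 there, against -0.19 in replicate 2 and -0.16 in replicate 3. Without batch correction it was 0.45 in replicate 1. BIRC5, which encodes survivin, a subunit of the chromosomal passenger complex, had log2 signals of 8.98, 6.98 and 7.30. TK1, the thymidine kinase of S phase, had 8.23, 6.43 and 6.89. The first array was the highest for both.

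The array that stood out was not the same replicate in every group. In the 50 nM 24 h group it was replicate 2, the highest for 42 of the 52 genes with a median deviation of 0.33. UBE2C, a ubiquitin-conjugating enzyme of the anaphase-promoting complex, had 7.33, 8.47 and 6.85 in that group. After 12 h of 50 nM, replicate 1 was the lowest for 40 genes, and with 100 nM, replicate 3 was the lowest for 36. The deviations were larger in genes of mitosis than in genes of replication licensing. In day 8 DMSO replicate 1, the median deviation was 0.46 over 30 genes of cyclins, mitosis and segregation and 0.10 over 12 genes of licensing and origin firing. Over the 12 arrays of day 8, the deviations of pairs of the 30 genes correlated at a mean r of 0.58, those of pairs of licensing genes at 0.12 and those of pairs of all genes at 0.01. On day 15 these means were 0.15, 0.04 and 0.01. They describe 12 arrays that share slides and groups. The median SD within day 8 DMSO was 0.36 for the 52 genes and 0.15 for all genes.

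**Figure D1:**
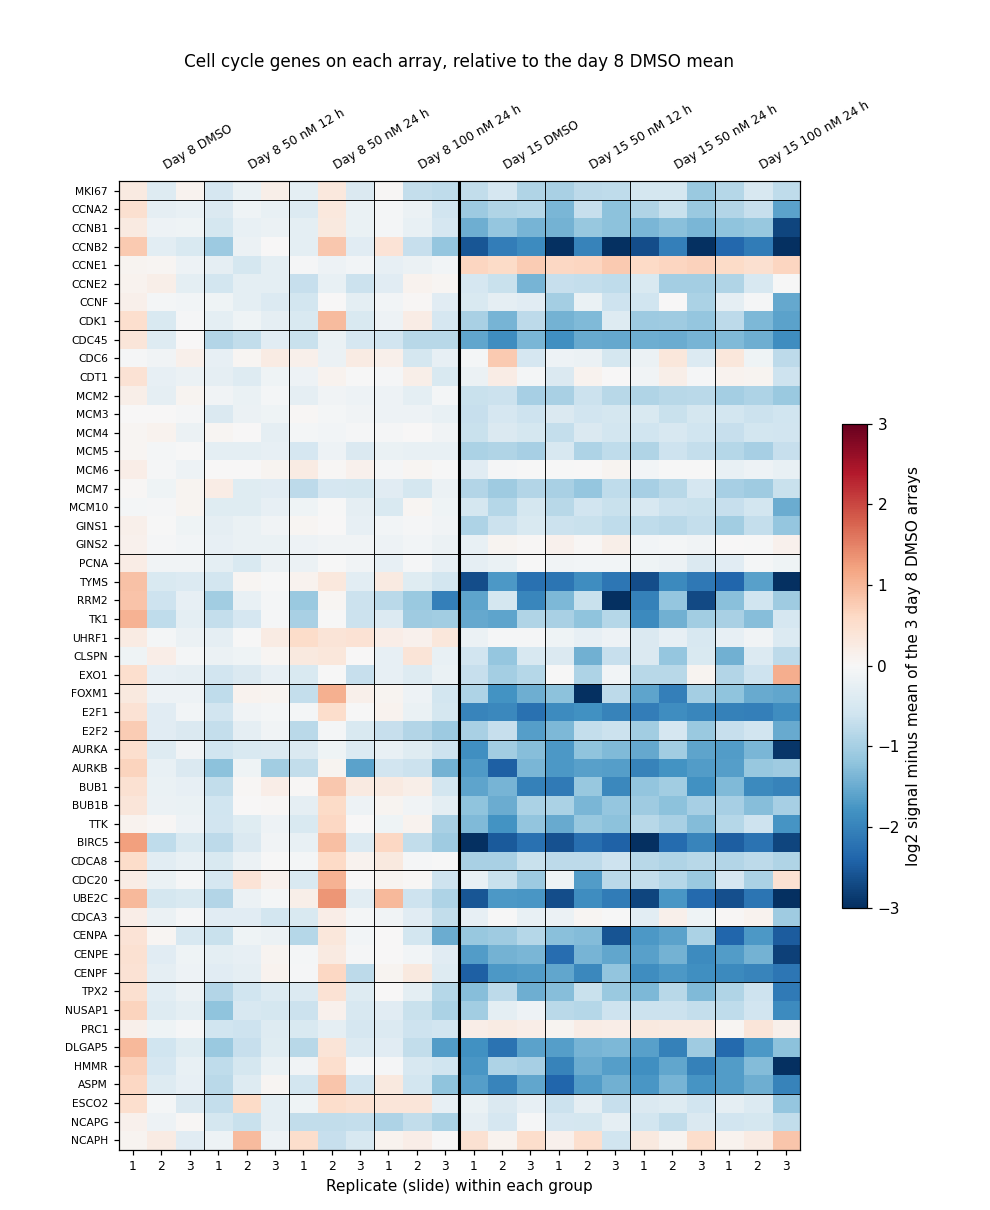
Heat map of the 52 cell cycle genes (rows, grouped by role) on the 24 arrays (columns, replicates 1 to 3 of each group, by day). Color gives the log2 signal of a gene minus its mean over the 3 day 8 DMSO arrays, drawn at the end of the scale beyond 3 in either direction; most rows were lower on day 15 in every group, and day 8 DMSO replicate 1 and day 8 50 nM 24 h replicate 2 stood above their groups.

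**Figure D2:**
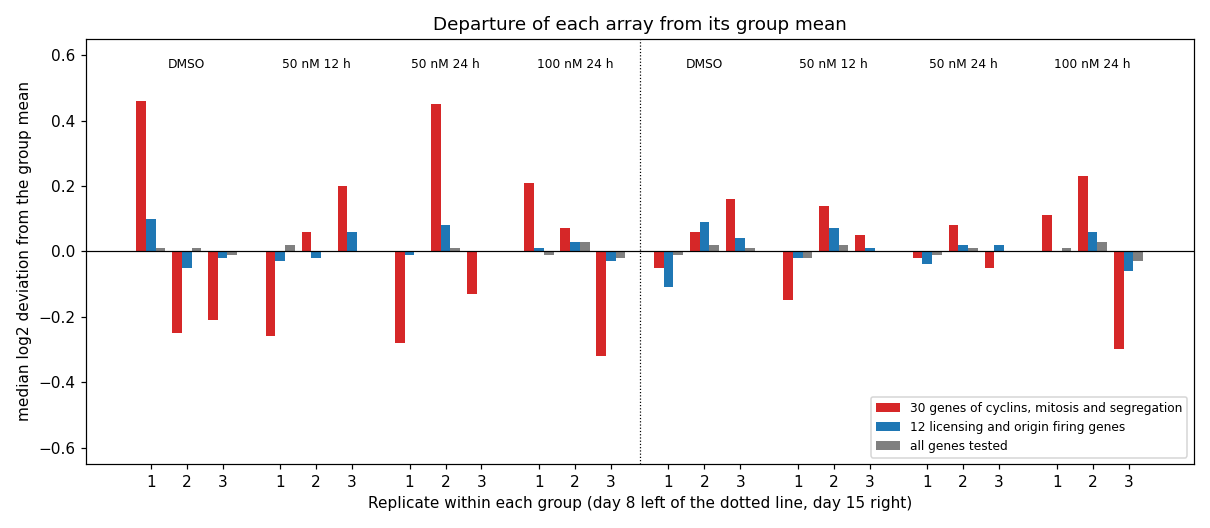
Median deviation of each array from its group mean on the log2 scale (y axis) for 30 genes of cyclins, mitosis and segregation, 12 genes of licensing and origin firing, and all genes tested (bar colors), for replicates 1 to 3 of each group (x axis). The bars of the 30 genes reached 0.46 in day 8 DMSO replicate 1 and 0.45 in day 8 50 nM 24 h replicate 2, while those of all genes stayed between -0.03 and 0.03.

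Between day 8 and day 15 most cell cycle transcripts fell in the DMSO controls. Of the 52 genes, 31 fell and 1 rose, while 12.2% of all genes were called, 6.38% lower and 5.79% higher. The 3 arrays of day 15 lay below the 3 arrays of day 8 for 38 of the 52 genes, and for 22.6% of all genes. The median change was -0.94 for the 52 genes and -0.04 for all genes. The comparison asks how far these transcripts fall as control aggregates mature. The count depends on replicate 1: without day 8 DMSO replicate 1, 21 genes were called with a median of -0.74. Without day 15 DMSO replicate 1, 24 genes were called with a median of -0.95, and without both replicate 1 arrays 19 genes with a median of -0.76. Without any other single DMSO array, 28 to 31 genes were called.

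All 7 mitotic kinases, checkpoint genes and passenger subunits fell. BIRC5 went from 8.98, 6.98 and 7.30 in day 8 DMSO to 4.65, 5.24 and 5.51 in day 15 DMSO. The groups did not overlap, and the change of -2.62 (SE 0.49, limma adjusted p = 6e-04) corresponds to 6.14-fold. Without day 8 DMSO replicate 1 it was -1.89, adjusted p = 0.0062 in limma, or 3.71-fold. BUB1B, which encodes the checkpoint protein BubR1, fell from 6.52, 5.97 and 5.95 to 4.93, 4.66 and 5.20. Its change was -1.22 (SE 0.22, limma adjusted p = 0.00049). AURKA, the kinase of spindle poles, fell by 1.39 on the log2 scale. AURKB, the kinase of the passenger complex, had 6.25, 5.35 and 5.14 on day 8 and fell, with a fold of 3.14 against a floored day 15 mean. It was well above background on 3 arrays of day 8 and 0 of day 15. The same held for the checkpoint kinases BUB1 and TTK, which fell with floored folds of 2.43 and 2.5. For a floored fold, each day 15 array enters at the gene's own signal or the lowest signal well above background on that array, whichever is higher. That lowest signal is not a limit of detection, so that floored folds are not strict lower bounds. On day 15 DMSO replicate 1 it was 2.66, while AURKB at 3.87 was not well above background. The day 8 mean includes replicate 1, the highest array for AURKB, BUB1 and TTK, and no floored fold was computed without it. CDCA8, the passenger subunit borealin, fell by 0.87 on the log2 scale, and lost its call without day 8 DMSO replicate 1 (-0.54, adjusted p = 0.022).

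Cyclins moved in both directions. CCNB2, a mitotic cyclin B, fell from 7.97, 6.87 and 6.73 to 4.63, 5.11 and 5.30, a log2 change of -2.18 (SE 0.49, limma adjusted p = 0.0031). CCNB1, the main mitotic cyclin, fell from 7.81, 7.39 and 7.40 to 6.07, 6.37 and 6.14, a log2 change of -1.34 (SE 0.29, limma adjusted p = 0.0021). CCNA2, the cyclin of S and G2, fell by 0.95 and CCNE2, the second cyclin E, by 0.85 (-0.41 and -1.29 by its 2 probes). Both lost their call without day 8 DMSO replicate 1 (-0.65, adjusted p = 0.087 and -0.79, adjusted p = 0.05), CCNE2 also without day 8 DMSO replicate 2 (-0.76, adjusted p = 0.059) or day 15 DMSO replicate 3 (-0.58, adjusted p = 0.083). In contrast, CCNE1, which encodes cyclin E1 and activates CDK2 at entry into S phase, rose from 9.18, 9.17 and 8.96 to 9.75, 9.68 and 9.87. Every day 15 array of CCNE1 lay above every day 8 array, and the change was 0.67 (SE 0.09, limma adjusted p = 1.9e-05). Of the 52 genes, CCNE1 was the 1 called higher. CCNF, a cyclin that targets proteins for degradation, differed by -0.35 and was not called.

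CDK1, the partner of cyclins A and B, had 5.40, 4.44 and 4.88 on day 8 and 3.94, 3.52 and 4.12 on day 15, where 1 array was well above background. It was called at -1.05 (SE 0.35, limma adjusted p = 0.035), although its 2 probes gave -0.14 and -1.96. With a replicate block CDK1 missed the threshold (-1.04, adjusted p = 0.058), as it did without day 8 DMSO replicate 1 (-0.75, adjusted p = 0.19) or 3 (-1.08, adjusted p = 0.069) and without day 15 DMSO replicate 1 (-1.09, adjusted p = 0.067) or 2 (-0.88, adjusted p = 0.13). MKI67 was close to background, with 5.07, 4.42 and 4.92 on day 8 and 4.07, 4.31 and 3.91 on day 15, where 1 of 3 arrays was well above background. It was called at -0.71 (SE 0.25, limma adjusted p = 0.044), and its 3 probes gave -0.79, -0.32 and -1.02. With a replicate block MKI67 missed the threshold (-0.70, adjusted p = 0.062), as it did without day 8 DMSO replicate 1 (-0.54, adjusted p = 0.19) or 3 (-0.65, adjusted p = 0.12) and without day 15 DMSO replicate 1 (-0.69, adjusted p = 0.1) or 3 (-0.62, adjusted p = 0.13). The call of MKI67 was kept under 6 of 19 alternatives and that of CDK1 under 10, while those of BIRC5, BUB1B, CDC45, E2F1, MCM2, MCM5, MCM7 and CCNE1 were kept under all 19.

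Of the 12 genes of licensing and origin firing, 7 fell. CDC45, which joins MCM and GINS proteins to form the active replicative helicase, fell from 7.64, 6.89 and 7.29 to 5.72, 5.40 and 5.90. Its change was -1.60 (SE 0.19, limma adjusted p = 4.8e-06). Of the MCM subunits, which form the ring that unwinds DNA, MCM5 fell from 8.25, 8.12 and 8.17 to 7.24, 7.27 and 7.18, a log2 change of -0.95 (SE 0.11, limma adjusted p = 4.6e-06). MCM7, MCM2 and MCM3 fell by 0.94, 0.78 and 0.61 on the log2 scale, and MCM3 lost its call without day 15 DMSO replicate 1 (-0.55, adjusted p = 0.00042). MCM4 had an adjusted p below 0.05 at a smaller fold change (-0.54, limma adjusted p = 0.00064), and MCM6 differed by -0.13 (95% CI -0.33 to 0.07). GINS1 fell by 0.67, but not without day 8 DMSO replicate 1 (-0.58, adjusted p = 0.0056) or day 15 DMSO replicate 1 (-0.52, adjusted p = 0.0068). GINS2 of the same complex differed by -0.04 (95% CI -0.21 to 0.13). The loaders CDC6 and CDT1, which place MCM on origins, differed by 0.07 (95% CI -0.55 to 0.70) and 0.00 (95% CI -0.45 to 0.44). MCM10, which helps to start the fork, fell by 0.64, and lost its call without day 8 DMSO replicate 3 (-0.59, adjusted p = 0.055) or day 15 DMSO replicate 2 (-0.53, adjusted p = 0.075).

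Among the genes of nucleotide supply, fork and repair, 2 of 7 fell. TYMS, which makes thymidylate, went from 8.53, 7.19 and 7.23 to 4.98, 5.93 and 5.41, a log2 change of -2.21 (SE 0.38, limma adjusted p = 0.00028). TK1 fell by 1.35, and lost its call without replicate 1 of day 8 DMSO (-0.73, adjusted p = 0.13) and without replicates 1 (-1.22, adjusted p = 0.053) or 2 (-1.21, adjusted p = 0.054) of day 15 DMSO. PCNA, the sliding clamp of the fork, had 10.15, 9.82 and 9.81 on day 8 and 9.65, 9.72 and 9.91 on day 15. These groups overlapped, and the difference was -0.16 (95% CI -0.41 to 0.08). UHRF1, which carries DNA methylation across replication, differed by -0.09 (95% CI -0.35 to 0.18). RRM2, a subunit of ribonucleotide reductase, was well above background on 1 array of day 8 and 0 of day 15, and was not called (limma adjusted p = 0.14). CLSPN, an adaptor of the replication checkpoint, and EXO1, a repair nuclease, differed by -0.74 and -0.86 and were not called.

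Of the 3 transcription factors, 2 fell. E2F1 went from 6.67, 5.89 and 6.15 to 4.26, 4.30 and 4.0, where 2 of 3 arrays were well above background. Its change of -2.05 (SE 0.2) had the smallest adjusted p of the 52 genes (3.2e-07 in limma). E2F2 fell by 1.11 with 2 arrays well above background on day 8 and 1 on day 15, and lost its call without replicate 1 of day 8 DMSO (-0.64, adjusted p = 0.19) or replicate 3 of day 15 DMSO (-0.80, adjusted p = 0.12). FOXM1, at -1.40, missed the threshold (limma adjusted p = 0.058).

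Among the genes of centromere, spindle and cytokinesis, 6 of 9 fell. CENPF, a protein of the outer kinetochore, went from 7.19, 6.47 and 6.59 to 4.31, 5.02 and 5.07, a log2 change of -1.95 (SE 0.3, limma adjusted p = 7.4e-05). Its 2 probes gave -2.45 and -1.46. CENPE, the kinetochore kinesin, fell by 1.48. DLGAP5, which bundles spindle microtubules, had 6.79, 5.22 and 5.46 on day 8 and was not well above background on any day 15 array. It fell with a floored fold of 3.6. Its measured change was -1.88, and without day 8 DMSO replicate 1 -1.29, adjusted p = 0.028. ASPM, a spindle pole protein, fell by 1.73 with 1 of 3 day 15 arrays well above background, HMMR by 1.23 and TPX2, the activator of aurora A, by 1.18. The 2 probes of ASPM gave -2.15 and -1.31. HMMR and TPX2 lost their calls without day 8 DMSO replicate 1 (-0.80, adjusted p = 0.15 and -0.88, adjusted p = 0.12) and without day 15 DMSO replicate 1 (-0.91, adjusted p = 0.12 and -1.11, adjusted p = 0.06), TPX2 also without day 15 DMSO replicate 3 (-1.03, adjusted p = 0.07). PRC1, which cross-links microtubules of the spindle midzone, lay higher on day 15 on every array, with 9.66, 9.38 and 9.46 on day 8 and 9.71, 9.75 and 9.70 on day 15. That difference of 0.22 was not called (limma adjusted p = 0.11).

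UBE2C fell from 8.14, 6.64 and 6.69 to 4.58, 5.43 and 5.41, a log2 change of -2.01 (SE 0.52, limma adjusted p = 0.008), and lost its call without day 8 DMSO replicate 1 (-1.43, adjusted p = 0.071) or day 15 DMSO replicate 1 (-1.67, adjusted p = 0.051). CDC20, the activator of the anaphase-promoting complex, differed by -0.66 and CDCA3 by -0.16, and neither was called. Of the 3 genes of cohesion and condensin, 0 were called in limma, and 1 had an unadjusted p below 0.05. This was NCAPG, a subunit of condensin I, which compacts mitotic chromosomes. It had 7.51, 7.23 and 7.42 on day 8 and 7.11, 6.89 and 7.36 on day 15, with overlapping groups and a difference of -0.27 (95% CI -0.53 to 0.00).

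**Figure D3:**
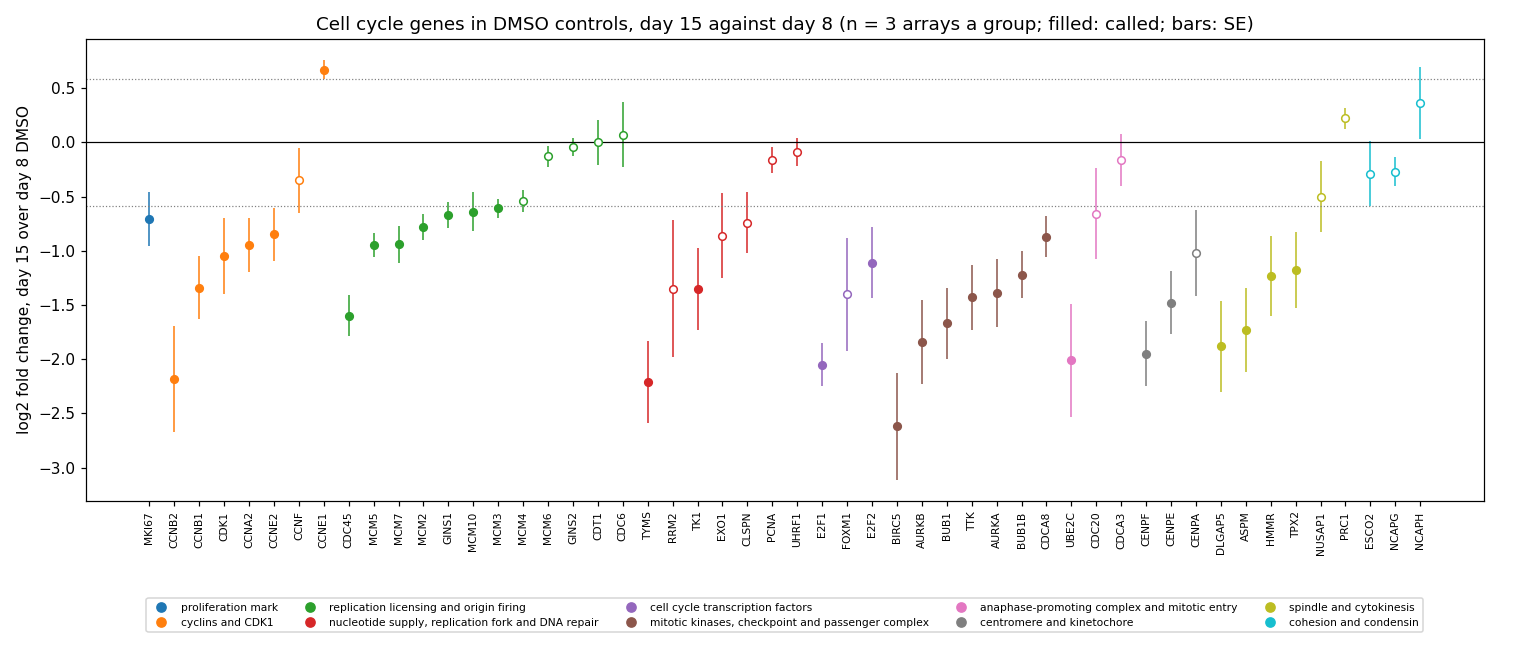
Log2 fold change of the 52 cell cycle genes in DMSO controls, day 15 over day 8, grouped by role, with SE bars (n = 3 arrays a group) and dotted lines at 1.5-fold. Filled points were called; CCNE1 is the filled point above 0, and BIRC5 at -2.62 is the lowest.

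Many of these genes share short promoter motifs, shown here because so many of them fell together. Of the 53 genes, 34 matched 1 promoter in RefSeq (GRCh38.p14), and the 250 bases before each start were searched on both strands. The letters were TTTGAA or TTCGAA for the CHR element bound by DREAM and B-MYB, CCAAT for the box bound by NF-Y, and TTTCCCGC, TTTGGCGC, TTTCGCGC or TTTGCCGC for an E2F site. A CHR was found in 14 of 34 promoters (41.2%), against 14.3% of 35116 promoters of all genes. A CCAAT box was found in 26 (76.5%, against 32% of all promoters) and an E2F site in 9 (26.5%, against 2.79%). Of the 19 with a promoter that fell with maturation, 7 held a CHR (36.8%), and of the 14 others measured, 6 did (42.9%). For E2F sites these shares were 21.1% and 35.7%, and for CCAAT boxes 73.7% and 78.6%, so that the motifs occurred in genes that fell and in genes that did not pass. A match describes letters only. Of the genes with a motif that were well above background in day 8 DMSO, the 6 with the largest differences with 100 nM on day 8 are printed. Capitals mark the motifs, and each sequence runs 5′ to 3′ toward the start of its gene.
DLGAP5: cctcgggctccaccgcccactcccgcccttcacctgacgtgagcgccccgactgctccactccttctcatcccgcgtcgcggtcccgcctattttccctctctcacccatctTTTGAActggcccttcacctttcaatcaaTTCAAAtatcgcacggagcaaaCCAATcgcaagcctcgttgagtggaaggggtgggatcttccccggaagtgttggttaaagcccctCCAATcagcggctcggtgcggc
NCAPG: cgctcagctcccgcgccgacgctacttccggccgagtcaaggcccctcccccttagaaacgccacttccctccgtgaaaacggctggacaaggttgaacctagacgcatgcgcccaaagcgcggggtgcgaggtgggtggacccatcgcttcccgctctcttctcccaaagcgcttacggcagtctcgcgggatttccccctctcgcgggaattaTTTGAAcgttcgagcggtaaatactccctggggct
NUSAP1: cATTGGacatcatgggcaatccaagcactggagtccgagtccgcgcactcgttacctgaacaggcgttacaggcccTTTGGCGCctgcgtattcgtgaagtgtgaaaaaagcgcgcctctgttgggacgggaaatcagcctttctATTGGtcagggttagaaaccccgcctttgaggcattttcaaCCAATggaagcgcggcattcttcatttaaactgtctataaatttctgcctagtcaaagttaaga
PRC1: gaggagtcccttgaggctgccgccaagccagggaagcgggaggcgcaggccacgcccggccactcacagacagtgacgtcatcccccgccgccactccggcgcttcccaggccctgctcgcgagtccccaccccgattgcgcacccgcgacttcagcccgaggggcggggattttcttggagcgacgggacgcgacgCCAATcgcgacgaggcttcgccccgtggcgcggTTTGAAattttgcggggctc
CCNB2: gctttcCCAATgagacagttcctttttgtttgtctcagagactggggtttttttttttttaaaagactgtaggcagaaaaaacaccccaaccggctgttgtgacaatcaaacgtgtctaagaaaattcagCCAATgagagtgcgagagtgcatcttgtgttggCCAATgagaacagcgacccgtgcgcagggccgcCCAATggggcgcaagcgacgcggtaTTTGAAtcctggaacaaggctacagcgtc
MKI67: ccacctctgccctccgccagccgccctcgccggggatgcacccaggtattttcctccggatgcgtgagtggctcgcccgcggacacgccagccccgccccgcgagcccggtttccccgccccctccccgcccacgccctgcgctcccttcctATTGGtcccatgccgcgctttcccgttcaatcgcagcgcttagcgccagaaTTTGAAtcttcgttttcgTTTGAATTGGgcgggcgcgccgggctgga
On GRCh38.p14 these lie at chr14:55191586-55191835 (DLGAP5, minus strand), chr4:17810729-17810978 (NCAPG, plus strand), chr15:41332631-41332880 (NUSAP1, plus strand), chr15:90994536-90994785 (PRC1, minus strand), chr15:59104896-59105145 (CCNB2, plus strand) and chr10:128126424-128126673 (MKI67, minus strand). The CHR of CCNB2 begins 29 bases before its start and that of PRC1 20 bases before, in both with a CCAAT box upstream. CCNB2 fell with maturation, while PRC1 was not called. The CHR of NCAPG begins 35 bases before its start, with no CCAAT box in the window. NUSAP1, which binds spindle microtubules, holds an E2F site and 3 CCAAT boxes and no CHR in this window. MKI67 holds a CHR at 47 and at 29 bases before the start, and the latter shares a base with a reversed CCAAT box.

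Few of these genes were called after acute exposure to 100 nM rotenone on day 8, a share close to that of all genes. Of the 52 genes, 2 fell and 0 rose, NCAPG and CDC45, while 3.45% of all genes were called and 2.02% were called lower. The comparison asks whether rotenone alters proliferation genes right after exposure. An adjusted p below 0.05 at any fold change was reached by 3 genes, and by 9.48% of all genes. The 3 rotenone arrays lay below the 3 DMSO arrays for 10 of the 52 genes, and for 15.8% of all genes. Differences below 0 were found for 47 genes, and the median was -0.21 against -0.02 for all genes. Without day 8 DMSO replicate 1, which had the highest cell cycle signals of its group, this median was -0.05 and 1 gene was called.

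NCAPG had 7.51, 7.23 and 7.42 in DMSO and 6.45, 6.65 and 6.43 with 100 nM. The groups did not overlap, and NCAPG fell by 0.88 on the log2 scale (SE 0.13, limma adjusted p = 0.00016), or 1.84-fold. Without DMSO replicate 1 its change was -0.80, limma adjusted p = 0.0019. CDC45 had 7.64, 6.89 and 7.29 in DMSO and 6.70, 6.44 and 6.45 with 100 nM, a log2 change of -0.74 (SE 0.19, limma adjusted p = 0.019). The groups did not overlap. CDC45 lost its call without DMSO replicate 1 (-0.52, adjusted p = 0.15), without DMSO replicate 3 (-0.74, adjusted p = 0.055), and without replicate 2 (-0.70, adjusted p = 0.065) or 3 (-0.70, adjusted p = 0.069) of 100 nM. PRC1 lay lower on every rotenone array, at 9.08, 8.88 and 8.93 against 9.66, 9.38 and 9.46. Its difference of -0.54 (SE 0.098, limma adjusted p = 0.0014) was 1.45-fold and thus below the fold threshold, which it passed without DMSO replicate 2 (-0.60, adjusted p = 0.002) or without replicate 1 of 100 nM (-0.61, adjusted p = 0.0023), where 3 genes were called.

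**Figure D4:**
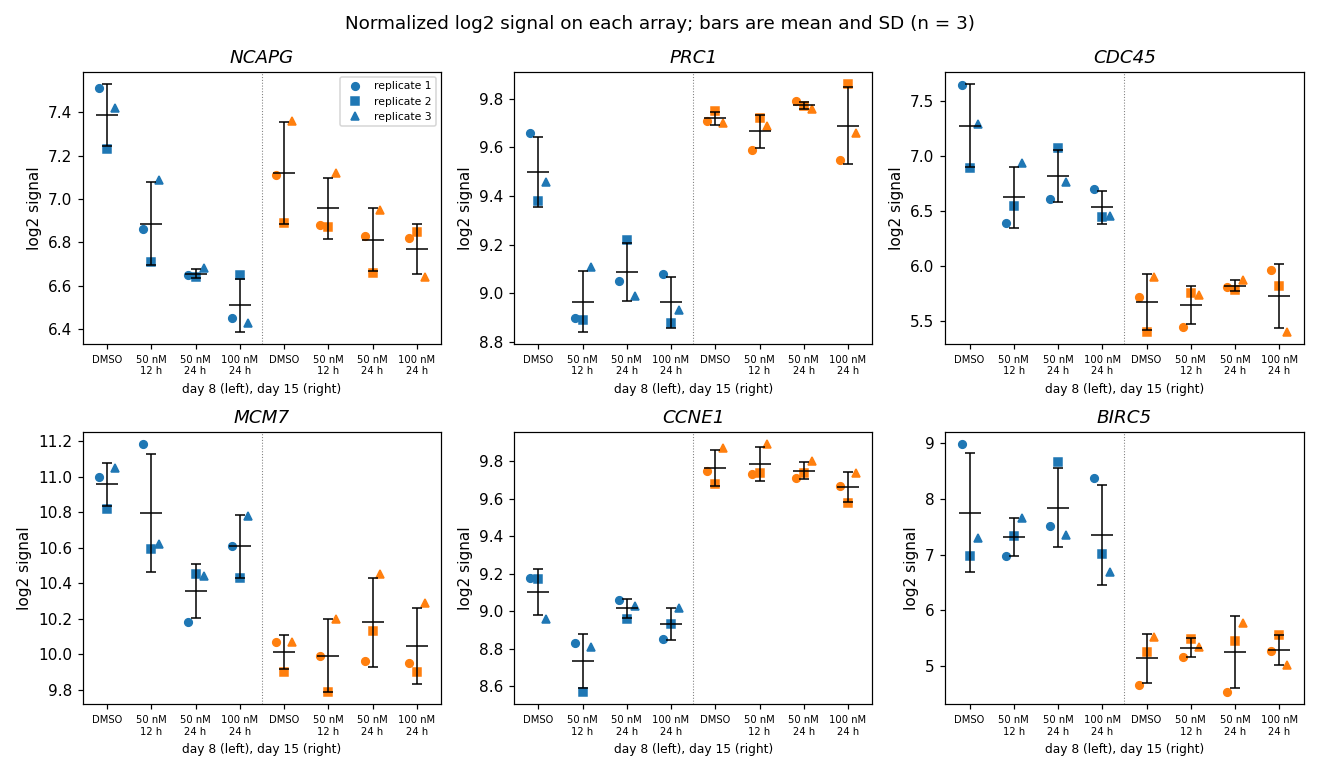
Normalized log2 signal (y axes, which do not begin at 0) of NCAPG, PRC1, CDC45, MCM7, CCNE1 and BIRC5 on each array, by group (x axes), with symbols for replicates 1 to 3 and bars for the mean and SD (n = 3). NCAPG and PRC1 lay below DMSO in every rotenone group of day 8, and BIRC5 of DMSO replicate 1 lay at 8.98, above the other DMSO arrays of that day.

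Other genes that fell over maturation, such as BIRC5, TYMS, CCNB1, CDK1 and CENPF, were not called after exposure. BIRC5 had 8.37, 7.01 and 6.68 with 100 nM, overlapping DMSO, and differed by -0.40 (95% CI -1.43 to 0.63). TYMS differed by -0.22 (95% CI -1.02 to 0.59), CCNB1 by -0.26 (95% CI -0.87 to 0.35), CDK1 by -0.15 (95% CI -0.88 to 0.58) and CENPF by 0.00 (95% CI -0.62 to 0.62). Each of these intervals reached beyond a change of 1.5-fold. The fit shares its spread over all 8 groups, so that their widths also carry the spread of arrays outside this comparison. CCNB1, for one, had 6.32, 6.40 and 4.79 with 100 nM on day 15. For CENPF the 2 probes gave -0.19 and 0.19. For PCNA the difference of -0.18 had an interval of -0.42 to 0.06. MKI67, at 4.83, 4.09 and 4.04, differed by -0.48 (limma adjusted p = 0.28). In the other roles the smallest p belonged to E2F2 (-0.88, limma adjusted p = 0.12), AURKB (-0.88, adjusted p = 0.2), TK1 (-0.85, adjusted p = 0.2), CCNE1 (-0.17, adjusted p = 0.3), CENPA (-0.68, adjusted p = 0.38) and CDCA3 (-0.39, adjusted p = 0.42). The lowest difference was that of RRM2 at -1.33, with 1 array well above background in each group.

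With 50 nM for 24 h, 2 of the 52 genes fell and 0 rose, against 2.8% of all genes called and 1.42% called lower. These were NCAPG and MCM7. NCAPG had 6.65, 6.64 and 6.68, all below DMSO, and fell by 0.73 (SE 0.13, limma adjusted p = 0.001). MCM7 had 11, 10.82 and 11.05 in DMSO and 10.18, 10.45 and 10.44 with rotenone, a log2 change of -0.60 (SE 0.17, limma adjusted p = 0.03). The groups of MCM7 did not overlap, and its 1.52-fold change was close to the threshold. MCM7 lost its call without DMSO replicate 1 (-0.57, adjusted p = 0.094) or 3 (-0.55, adjusted p = 0.1), and without replicate 1 (-0.49, adjusted p = 0.15) or 3 (-0.64, adjusted p = 0.054) of the exposed group. An adjusted p below 0.05 at any fold change was reached by 4 genes, and by 8.02% of all genes. Among them UHRF1 was higher, at 6.98, 6.80 and 6.85 against 6.66, 6.36 and 6.24 (0.46, SE 0.13, limma adjusted p = 0.032), and was called without DMSO replicate 1 (0.60, adjusted p = 0.01). PRC1, at 9.05, 9.22 and 8.99, differed by -0.42 (limma adjusted p = 0.012). The exposed arrays were all below DMSO for 5 of the 52 genes, and for 15.6% of all genes. The median was -0.09, and 0.08 without DMSO replicate 1.

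With 50 nM for 12 h, 0 of the 52 genes were called in limma, against 1.75% of all genes. At an unadjusted p below 0.05 there were 9, for which the share of all genes is not given and no excess is read. An adjusted p below 0.05 at any fold change was reached by 3 genes, and by 5.52% of all genes. PRC1 lay at 8.90, 8.89 and 9.11, all below DMSO, and differed by -0.53 (SE 0.098, limma adjusted p = 0.0027). NCAPG lay at 6.86, 6.71 and 7.09, also all below DMSO, and differed by -0.50 (SE 0.13, limma adjusted p = 0.024). CCNE1 lay at 8.83, 8.57 and 8.81 against 9.18, 9.17 and 8.96, and differed by -0.37 (SE 0.09, limma adjusted p = 0.02). CCNE1 was the cyclin that had risen with maturation. The exposed arrays were all below DMSO for 15 of the 52 genes, and for 13.1% of all genes. The median was -0.27, and -0.02 without DMSO replicate 1. Without DMSO replicate 2, 2 genes were called (CDC45 and PRC1), and without replicate 3 of the exposed group 3 were (CDC45, NCAPG and PRC1). The 3 comparisons of day 8 share their DMSO arrays and are not independent of each other.

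**Figure D5:**
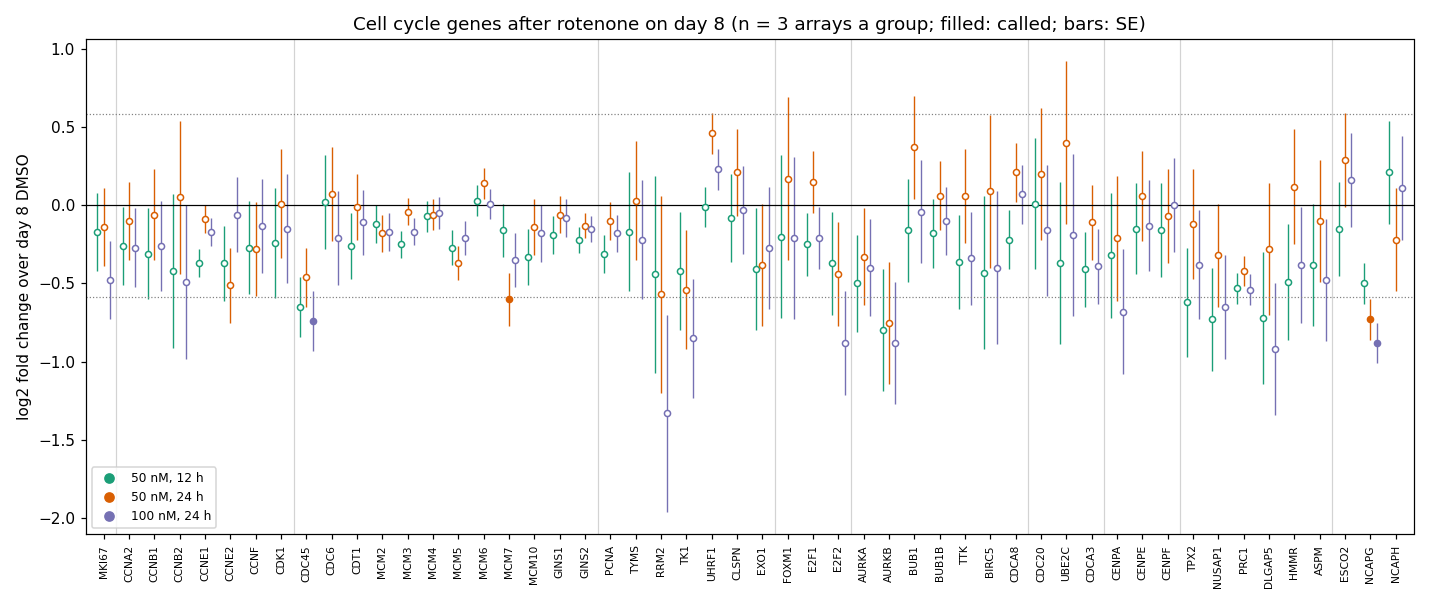
Log2 fold change of the 52 cell cycle genes over day 8 DMSO, in order of role, after 100 nM and after 50 nM at both durations (colors), with SE bars (n = 3 arrays a group) and dotted lines at 1.5-fold. Filled points were called; they are NCAPG and CDC45 with 100 nM and NCAPG and MCM7 with 50 nM for 24 h.

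Between doses and durations 0 of the 52 genes were called in limma. Between 100 nM and 50 nM at 24 h on day 8, 0% of all genes were called, and 0 of the 52 had an unadjusted p below 0.05. The median was -0.18, and -0.03 without replicate 2 of 50 nM for 24 h. NCAPG differed by -0.14 (95% CI -0.41 to 0.12), CDC45 by -0.28 (95% CI -0.69 to 0.12) and MCM7 by 0.25 (95% CI -0.10 to 0.60). Between 24 h and 12 h of 50 nM, 0.226% of all genes were called. At an unadjusted p below 0.05 there were 5 of the 52, for which the share of all genes is not given. UHRF1 lay higher at 24 h on every array, by 0.47 (95% CI 0.20 to 0.73, limma adjusted p = 0.12), and was called without replicate 3 of 50 nM for 12 h (0.60, adjusted p = 0.026). MCM7 lay lower at 24 h on every array, at -0.44 (95% CI -0.78 to -0.09, limma adjusted p = 0.3).

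On day 15, after wash-out, 0 of the 52 genes and 0% of all genes were called in limma in each rotenone group. The genes with an unadjusted p below 0.05 numbered 3 with 100 nM, 2 with 50 nM for 24 h and 0 with 50 nM for 12 h. These counts are given without the share of all genes. At an unadjusted p below 0.01 and a fold change over 1.5, 1 gene passed with 100 nM, against 0.763% of all genes. At 50 nM 0 genes passed after either duration (24 h and 12 h), against 0.24% and 0.452% of all genes. The medians were -0.06, 0.00 and -0.03, and without day 15 DMSO replicate 1 they were -0.11, -0.03 and 0.00. The gene that passed was CENPA, the histone of the centromere, which was well above background on 2 of 3 arrays of day 8 DMSO. On day 15 it lay at 2.37, 3.02 and 2.24 with 100 nM against 3.61, 3.67 and 3.88. It was not well above background on any of these arrays, so that no fold is given (limma adjusted p = 0.62). Without any 1 of the day 15 DMSO replicates 1, 2 and 3, or without replicate 3 of 100 nM, 0 genes passed, and without replicate 2 of 100 nM 3 did. Replicate 3 of 100 nM had a residual SD of 0.45 over all genes, against 0.20 to 0.31 on the other arrays.

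NCAPG had 6.82, 6.85 and 6.64 with 100 nM on day 15 and 7.11, 6.89 and 7.36 in DMSO. Every exposed array was lower, with a difference of -0.35 (SE 0.13, limma adjusted p = 0.63). PRC1 differed by -0.03 (95% CI -0.24 to 0.17) and CDC45 by 0.06 (95% CI -0.35 to 0.46). PCNA differed by -0.02 (95% CI -0.26 to 0.22), MKI67 by 0.00 (95% CI -0.51 to 0.52) and CCNB1 by -0.36 (95% CI -0.96 to 0.25). TYMS differed by -0.18 (95% CI -0.99 to 0.62) and CDK1 by -0.20 (95% CI -0.93 to 0.53). In the other roles the smallest p belonged to GINS1 (-0.29, limma adjusted p = 0.66), HMMR (-0.76, adjusted p = 0.69), AURKA (-0.60, adjusted p = 0.71), EXO1 (0.72, adjusted p = 0.72), CCNE2 (0.38, adjusted p = 0.74), UBE2C (-0.74, adjusted p = 0.77) and E2F2 (0.18, adjusted p = 0.93). Without day 15 DMSO replicate 1, 0 of the 52 genes were called either, with HMMR at -1.08, adjusted p = 0.43, UBE2C at -1.07, adjusted p = 0.55 and NCAPG at -0.36, adjusted p = 0.47 in limma. The difference between the days, the day 15 effect minus the day 8 effect of 100 nM, was called in limma for 0 of the 52 genes, against 1.92% of all genes. At an unadjusted p below 0.05 there were 7, for which the share of all genes is not given. For NCAPG the difference between the days was 0.53 (95% CI 0.15 to 0.90, limma adjusted p = 0.15) and for CDC45 0.80 (95% CI 0.23 to 1.37, limma adjusted p = 0.15). PRC1 had the smallest adjusted p (0.50, limma adjusted p = 0.063) and was called without replicate 1 of 100 nM on day 15 (0.59, adjusted p = 0.032). Without day 15 DMSO replicate 1 these were 0.52, adjusted p = 0.22 for NCAPG, 0.82, adjusted p = 0.19 for CDC45 and 0.50, adjusted p = 0.11 for PRC1 in limma.

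Of 90 further cell cycle genes, 87 were tested. With maturation 25 fell and 0 rose, where 6.38% of all genes were called lower, and the median was -0.40 against -0.04 for all genes. Without day 8 DMSO replicate 1, 19 were called lower with a median of -0.30, without day 15 DMSO replicate 1 20 with a median of -0.35, and without both 17 with a median of -0.27. Of the 25, 7 lost their call without the first, 6 without the second and 9 without both. The 25 were 14 of 28 mitotic genes, 3 of 18 replication genes, 3 of 16 genes of pocket proteins, E2F and DREAM, 3 of 11 of checkpoints and CDC25, 2 of 6 G1 cyclins and kinases and 0 of 8 inhibitors of cyclin-dependent kinases. TOP2A, the topoisomerase of dividing cells, had 7.06, 5.65 and 5.82 in day 8 DMSO and fell with a floored fold of 5.49. That fold rests on the day 8 mean, replicate 1 included, and was not computed without it. The kinesin KIF11 fell by 1.85 on the log2 scale with 2 of 3 day 15 arrays well above background, the kinetochore subunit NDC80 by 1.80, CCND1, a cyclin D, by 1.77, the phosphatase CDC25A by 1.76 and the checkpoint kinase CHEK1 by 1.52. CDK6, a kinase of G1, fell from 7.72, 7.60 and 7.55 to 5.74, 6.03 and 6.22, with no overlap (-1.62, SE 0.18, limma adjusted p = 2e-06). The kinesins KIF2C and KIF20A fell by 1.71 and by 1.47, with 2 and 1 of 3 day 15 arrays well above background. NUF2, the partner of NDC80, fell with a floored fold of 3, but not without day 8 DMSO replicate 1 (-1.07, adjusted p = 0.21) or without day 15 DMSO replicate 1 (-1.38, adjusted p = 0.13), 2 (-1.69, adjusted p = 0.065) or 3 (-1.68, adjusted p = 0.063). The other genes called were ORC6, RFC5 and GINS4 of replication, WEE1, TFDP2, MYBL1 and E2F5 of cell cycle control, and KIF15, KIF23, SMC4, SPC25, PTTG1, CEP55, CKS2 and CENPU of mitosis, with changes from -1.31 to -0.62. Of these, CEP55, CKS2, E2F5, GINS4, KIF15 and KIF23 lost their calls without day 8 DMSO replicate 1, and CKS2, E2F5, GINS4, KIF23 and MYBL1 without day 15 DMSO replicate 1. KIF23 lost its call without any 1 of the 6 DMSO arrays, CKS2 and E2F5 also without day 8 DMSO replicate 2, and CEP55 and E2F5 also without day 15 DMSO replicate 3. CENPU, a centromere protein, went from 8.43, 8.02 and 7.97 to 7.0, 7.21 and 7.16, a log2 change of -1.02 (SE 0.17, limma adjusted p = 0.00018).

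With 100 nM on day 8, 1 of the 87 genes was called, against 3.45% of all genes. POLA1, the catalytic subunit of DNA polymerase alpha, fell from 9.0, 8.83 and 8.78 to 8.14, 8.20 and 8.30. The groups did not overlap, and the change was -0.65 (SE 0.085, limma adjusted p = 6.7e-05). Without DMSO replicate 1 its fold change was below the threshold (-0.58, adjusted p = 0.00075). PRIM1, the primase subunit of the same complex, lay higher on every array, at 9.13, 9.17 and 9.19 against 8.80, 8.50 and 8.60 (0.53, SE 0.11, limma adjusted p = 0.0029), and was called without DMSO replicate 1 (0.63, adjusted p = 0.002). CENPU differed by -0.36 (limma adjusted p = 0.24) and CDC25B, a phosphatase of mitotic entry, by 0.43 (limma adjusted p = 0.0065). CDC25A of the same list lay lower on every array, at 7.70, 7.73 and 7.50 against 8.50, 8.24 and 8.54. Its difference of -0.79 was the lowest of that list and was not called. The fit shares its spread over all groups, and CDC25A had 6.28, 6.41 and 4.72 with 100 nM on day 15. Whether that spread kept CDC25A from being called was not tested. In other lists the smallest p belonged to E2F7, a repressor of the E2F family (-0.31, adjusted p = 0.4), CDK6 (0.29, adjusted p = 0.43) and CDKN1A, which encodes the inhibitor p21 (0.38, adjusted p = 0.53).

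With 50 nM for 12 h, POLA1 was the 1 gene called (-0.64, limma adjusted p = 0.00018), against 1.75% of all genes. It was not called without DMSO replicate 1 (-0.56, adjusted p = 0.0017) or replicate 1 of the exposed group (-0.55, adjusted p = 0.0013). After 24 h of 50 nM POLA1 differed by -0.38 (limma adjusted p = 0.009), and 2 other genes were called, against 2.8% of all genes. CDK6, which had fallen with maturation, rose from 7.72, 7.60 and 7.55 to 8.58, 8.76 and 8.19, with no overlap (0.89, SE 0.18, limma adjusted p = 0.0042). FEN1, which removes flaps of Okazaki fragments, fell by 0.61 (limma adjusted p = 0.0048), but not without DMSO replicate 1 (-0.49, adjusted p = 0.041) or replicate 1 of the exposed group (-0.48, adjusted p = 0.044). On day 15, 0 of the 87 genes and 0% of all genes were called in limma in each rotenone group. An unadjusted p below 0.05 was reached by 6, 1 and 1 of the 87, counts given without the share of all genes. CENPU differed by -0.26 (95% CI -0.62 to 0.09) with 100 nM on that day.

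Markers of cell types in the aggregates moved alongside, and their part in the results was not tested. The 8 neuronal markers were well above background on all arrays, with a summed linear signal of 207000 to 237000 in day 8 DMSO, 199000 to 202000 with 100 nM and 231000 to 270000 in day 15 DMSO. Single neuronal markers went both ways between the days. NEFL had 15.53, 15.69 and 15.53 in day 8 DMSO and 16.17, 16.27 and 15.88 in day 15 DMSO. MAP2 had 14.58, 14.78 and 14.63 and then 14.21, 14.33 and 14.08, and RBFOX3 was also lower on every day 15 array. Of the 7 neural progenitor markers measured, SOX2 and HES1 were not well above background on any DMSO array. The progenitor sum was 16600 to 20600 in day 8 DMSO, 23200 to 26400 with 100 nM and 26800 to 30800 in day 15 DMSO. Most of it came from 1 gene, VIM, which encodes an intermediate filament and had log2 signals of 13.86, 13.95 and 14.21, 14.34, 14.55 and 14.40 and 14.79, 14.60 and 14.64 in these groups. VIM rose by 0.67 with maturation (without day 8 DMSO replicate 1, 0.58, adjusted p = 0.0039, under the fold threshold), while PROM1 fell by 1.23, with 1 of 3 arrays well above background on day 15. With 100 nM on day 8, PROM1 and HES5 fell by 0.71 and 0.73, but not without DMSO replicate 1 (-0.71, adjusted p = 0.081 and -0.54, adjusted p = 0.011). PAX6 differed by -0.45 there and NES by 0.59, and neither was called. Of the 6 dopaminergic markers, TH fell by 2.94 and SLC6A3 by 2.07 with maturation, NR4A2 rose by 1.57, and SLC18A2 was not well above background on any array of day 8 DMSO. Their sum, to which TH contributed most on day 8, was 1320 to 1350 in day 8 DMSO and 448 to 498 in day 15 DMSO. The sum of 4 oligodendrocyte lineage markers was 5940 to 6460 in day 8 DMSO and 248 to 341 in day 15 DMSO. It followed OLIG1, at 12.51, 12.64 and 12.62 and then 7.12, 7.35 and 7.80 (-5.16, SE 0.17, limma adjusted p = 2.5e-13), while MBP differed by 0.10 (95% CI -0.15 to 0.35) and MOG by 0.37 (95% CI -0.11 to 0.84). Of the astrocyte markers GJA1 fell between the days, with a floored fold of 1.67, but not without replicate 1 of day 8 DMSO (-0.56, adjusted p = 0.25) or of day 15 DMSO (-0.60, adjusted p = 0.23). GJA1 was well above background on 1 of 3 arrays of day 8 DMSO and 0 of day 15 DMSO, so that its fall is uncertain. AQP4 of the same list had 4.06, 4.73 and 3.76 in day 8 DMSO and 4.78, 4.16 and 4.83 in day 15 DMSO. It was well above background on 0 arrays of day 8 DMSO and 2 of day 15 DMSO, and the groups overlapped. Astrocyte markers summed to at most 136 and microglia markers to at most 74.9 in DMSO, and 0 of 6 and 0 of 4 were well above background on all 3 arrays of either day.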

How the data were processed

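RNA of 24 wells was hybridized to 1-color Agilent arrays, 62976 spots each. Per the labels, the deposited scanner files hold linear intensities extracted with Agilent Feature Extraction (11.5.1.1 in the submitters' processing notes), and R 3.5 is named there as well. The authors' deposited table of log2 values was used as an alternative only.

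Median intensities were background-corrected by normexp with an offset of 0 in R 4.3.3 (limma 3.58.1, with the data.table package, version 1.17.8) and quantile-normalized. Slide 1 was corrected by parametric ComBat with the groups as covariates. A spot was kept if its signal exceeded the negative controls' 95th percentile by a factor of 1.1 on at least 3 arrays (59461 spots). Flagged values (6756) were left out, and a gene's value is the mean over its probes. RefSeq accessions (GRCh38.p14) gave names to 30275 of 50599 probes. A linear model over all 8 groups was fitted in limma to the 21239 genes (16 residual and 2.37 prior degrees of freedom), with Benjamini-Hochberg adjustment over all of them. Calls needed a fold change above 1.5 and an adjusted p below 0.05. On day 15 an unadjusted p below 0.01 with the same fold was used as well. The fit was also run on simulated data with independent noise for each gene and array, which does not cover genes that vary together. Where no array of the dimmer group was well above background, the fold is floored. Each array of that group enters at the lowest signal well above background or the gene's own, whichever is higher. Such a fold is not a strict lower bound. Intervals printed with differences are 95% confidence intervals and are not adjusted. They use the spread over all 8 groups, so that an array outside a comparison can widen them. Figures were drawn with matplotlib 3.10.9 in Python 3.11.15.

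The genes, the further lists and the tests were chosen with earlier results of these data known. Genes were named if called (of the further genes, with values for the 10 with the largest change), if they had the smallest p of their role, or from a short list (MKI67, TYMS, CDK1, CCNB1, PCNA and CENPU). Beyond that rule, genes of a role that were not called were named after their values were seen, to account for each role. Without batch correction, the deviations of all 84 pairs of arrays with the same replicate number correlated (lowest r 0.171), and the number is that of the slide, so that the replicate numbers pair the samples. After ComBat the median r of these pairs was 0.02. The fit with the slide as a replicate block is therefore given where it changed a call of a cell cycle gene. Alternatives were a normexp offset of 50, other scalings, filters, batch corrections, probes and fits, slides 2 and 3 alone, the deposited table, and each array left out in turn. Leaving out both replicate 1 DMSO arrays was added after seeing the data. Feature Extraction was 12.0.0.7 for slide 2 and 11.5.1.1 for slides 1 and 3 per the file headers.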

Additional observations from a re-analysis of the deposited data

Results flagged for a closer look

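Among the 52 genes, the 87 further genes and the 35 markers tested, the effect of 100 nM rotenone over DMSO differed between the days for 3 genes. The difference itself was tested in limma, where 1.92% of all genes were called. No excess over that share is read from the 3 genes. POLA1 differed by 0.64 on the log2 scale (day 15 effect minus day 8 effect, SE 0.12, adjusted p = 0.0061), with effects of -0.65 on day 8 and -0.01 on day 15. It lost its call without day 8 DMSO replicate 1, where the difference of 0.56 was under the fold threshold (adjusted p = 0.023), and kept it without day 15 DMSO replicate 1 (0.61, adjusted p = 0.018) and under 19 of 25 alternatives in all. PRIM1 differed by -0.60 (SE 0.15, adjusted p = 0.04), with 0.53 on day 8 and -0.06 on day 15, and kept its call under 10 of 25 alternatives. It was called without replicate 1 of day 8 DMSO (-0.70, adjusted p = 0.024) or of day 15 DMSO (-0.69, adjusted p = 0.021), and not without replicate 2 or 3 of either, any replicate of 100 nM on day 8, or replicate 2 or 3 of 100 nM on day 15 (adjusted p = 0.057 to 0.11). HES5, a progenitor marker, differed by 0.72 (SE 0.19, adjusted p = 0.05, below the threshold before rounding), with -0.73 on day 8 and -0.01 on day 15. HES5 lost its call without replicate 1 of day 8 DMSO (0.53, adjusted p = 0.13) or of day 15 DMSO (0.62, adjusted p = 0.12). Of the 52 genes, 0 were called in this test in limma. At an unadjusted p below 0.05 there were 7, for which the share of all genes is not given.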

How the results depend on the processing

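No called gene among the 52 or the further cell cycle genes changed direction under any alternative that was run. Medians near 0 did change sign, among them that of 100 nM on day 15 (-0.11 to 0.18), that of 50 nM for 24 h on day 8 (-0.10 to 0.19) and that of the difference between the days (-0.03 to 0.24 with 1 array left out). Of the summary values, 250 counts and medians stayed close to their value while 26 moved. With 1 array left out, 153 stayed close and 20 moved. Between the days in DMSO 32 of the 52 genes were called, and 9 to 35 under 12 alternatives, of which 9 to 32 were among those 32. On slides 2 and 3 alone it was 9, and 0 were then called with 100 nM or with 50 nM for 24 h on day 8, where the median was 0.19. With 100 nM on day 8, 1 gene was called with 75th percentile scaling, without batch correction, with an offset of 50 and with only the compared groups fitted. After 24 h of 50 nM it was 0 with an offset of 50, and 1 with 75th percentile scaling, ComBat without group covariates, the brightest probe, the deposited table, no batch correction, only the compared groups or the processed signal. After 12 h of 50 nM, 1 gene (CDC45) was called from the deposited table and with a filter on spots well above background. The median over maturation was -0.47 with an offset of 50. With the processed signal it was -0.98, where the median of all genes was 0.11. The difference between the days had a median of 0.45 and 1 call (NCAPG, 0.82, adjusted p = 0.019) with the processed signal, and a median of 0.37 with 75th percentile scaling, where that of all genes was 0.14. On day 15, 0 genes passed the unadjusted threshold with 100 nM under ComBat without covariates, no batch correction, an offset of 50, a replicate block or slides 2 and 3. With 1 array left out, counts ranged from 1 to 3 (100 nM, day 8), 1 to 2 (50 nM for 24 h), 0 to 3 (50 nM for 12 h), 19 to 31 (maturation, both replicate 1 arrays included), 0 to 1 (difference between the days), 0 to 1 (24 h against 12 h) and 0 to 3 (100 nM on day 15, unadjusted). With the replicate block 30 genes were called over maturation, all among those called before, and 2 in each 24 h group of day 8. CDK1 and MKI67 lost their calls, as did CKS2 (-0.67, adjusted p = 0.055) and NUF2 (-1.58, adjusted p = 0.065) of the further genes. Beside these and the unadjusted count of day 15, the block changed no other call of the 52 or the further cell cycle genes. Calls of marker genes were checked only with arrays left out. The cause of these changes was not tested. With 3 arrays a group, precision is limited by their number, and floored folds of genes near background are not strict bounds.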
